A study of Mus musculus with 12 samples.

Results

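The MCM genes and their S-phase companions were followed in mouse liver after concanavalin A (Con A). The set was Mcm2, Mcm3, Mcm4, Mcm5, Mcm6, Mcm7, Pcna, Rrm1, Rrm2 and Ccnd1, taken by symbol, and all 10 listed genes were among the 11289 genes of the deposited table. The livers came from 12 C57BL/6J mice, 8 to 10 weeks old by the labels and younger by the study's methods, in 3 groups of 4. Con A is a lectin of jack beans that stimulates T lymphocytes and causes acute hepatitis, and it was given at 15 mg/kg into the tail vein. Mice named Con A + PBS here received PBS 30 min later, and those named Con A + hWJ-MSCs received human Wharton's jelly-derived mesenchymal stromal cells in 200 µL of PBS. Livers were collected 24 h after Con A. The remaining mice are labelled as control, and what they were given in place of Con A is not given in the sources used here. Each liver was sequenced as whole tissue, so fewer cells of a type and less RNA per cell cannot be told apart.

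Before a cell copies its DNA, the origin recognition complex, CDC6 and CDT1 load the MCM2 to MCM7 hexamer onto origins, which licenses them. In S phase the hexamer joins CDC45 and GINS to form the replicative helicase, PCNA clamps the polymerases to DNA, and ribonucleotide reductase, made of the RRM1 and RRM2 subunits, supplies deoxynucleotides. Cyclin D1, the product of Ccnd1, activates CDK4 and CDK6 earlier, in G1, and E2F factors released from the retinoblastoma proteins drive many of the replication genes. Hepatocytes are mostly quiescent in the healthy adult liver, where Ccnd1 is known to be induced when they re-enter the cycle after tissue loss.

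Promoter sequence was available for 8 of the 10 genes in RefSeq (GRCm38.p6), in 9 windows of 250 bases before to 50 after a start. Mcm4 and Ccnd1 had no entry. E2F sites, written as TTTGGCGC, TTTCCCGC, TTTGCCGC or TTTCGCGC and searched on both strands, were found in 4 of these 9 windows (Mcm3, Mcm5, Mcm6 and Mcm7) and in 744 of all 32851 windows (2.26%), or 3.77% of the windows of genes in the table. The upstream stretches of Mcm5 and Mcm6 are shown because both hold a pair of E2F letters overlapping on opposite strands, here in capitals. That of Mcm5 is chr8:75109336-75109387 on the + strand, bases -173 to -122 from the start. That of Mcm6 is chr1:128359725-128359835 on the - strand, bases -130 to -20, with a further match nearer the start.
Mcm5: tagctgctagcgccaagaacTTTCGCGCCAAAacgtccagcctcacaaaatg
Mcm6: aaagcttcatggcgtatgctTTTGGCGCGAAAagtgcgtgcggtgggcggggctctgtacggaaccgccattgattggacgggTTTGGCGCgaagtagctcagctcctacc

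The NF-Y box CCAAT, on either strand, was in 9 of the 9 windows and in 12289 of all windows (37.4%), or 37.7% of those of genes in the table. The stretches of Mcm3 (chr1:20820325-20820444, - strand), Rrm1 (chr7:102441589-102441669, + strand) and Rrm2 (chr12:24708189-24708223, + strand) are shown with their boxes in capitals, since these genes hold no E2F letters upstream of the start yet share the box with the other genes.
Mcm3: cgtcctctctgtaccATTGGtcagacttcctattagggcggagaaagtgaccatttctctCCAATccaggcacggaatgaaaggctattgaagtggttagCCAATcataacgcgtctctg
Rrm1: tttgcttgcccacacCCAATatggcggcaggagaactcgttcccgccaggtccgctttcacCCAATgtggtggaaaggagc
Rrm2: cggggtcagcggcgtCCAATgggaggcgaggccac
The SP1 box GGGCGG was in 7 of the 9 windows and in 35.7% of all windows, or 61.3% of the windows of genes in the table, and the cell cycle homology region TTTGAA was in the Mcm2 window alone and in 17.9% of all windows, or 12.2% of those of genes in the table. An E2F and an NF-Y match of Mcm7 shared 1 base, and no other matches of different motifs overlapped. The windows of Mcm7 start 539 and 1156 bases from the start that the table lists for that gene, and that of Pcna 3010 bases from it. These matches are letters in a window, and no binding was measured.

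The values are scores, whole numbers that the authors had normalized between mice, with totals of 17649654 to 17657159 per mouse, so the sequencing depth is unknown. Every gene of the table reaches a score of 64 in at least 2 mice. Of the 10 genes, 8 reached it in 2 or more control mice, whereas Mcm2 and Mcm5 reached it in 1 control mouse each and are in the table through the Con A groups. Cdc6, Cdc45, Orc1, E2f1, Ccne1, Ccnb1 and Cdk1 are not in the table, and no value of theirs was used here. Con A + PBS mouse 4 lay at -55.2 on the second principal component, where the other 11 mice lay between -20.1 and 35.2. Control mouse 2 had the highest control score for 5 of the 6 MCM genes, and control mouse 1 the lowest, or tied for it, for all 6. These mice are followed below wherever they bear on a value.

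To ask how the replication genes stood 24 h after Con A, Con A + PBS livers were compared with control livers. The subunit genes Mcm2 to Mcm6 of the hexamer and both ribonucleotide reductase genes rose 1.82- to 3.27-fold, whereas Ccnd1 fell to 0.433 of its control level. Genes were called at a limma adjusted p below 0.05, over all genes, and a fold change above 1.5, on log2(score + 1). By this rule 7 of the 10 genes were called higher, against 19.5% of all genes, and 1 was called lower, against 19.2%. Without Mcm2 and Mcm5, which are in the table through the Con A groups, 5 of 8 were called higher. The median log2 fold change was 1.17 over the 10 genes and 0.05 over all genes. The groups did not overlap, with every Con A + PBS mouse above every control mouse, for 6 of the 10 genes, against 27.1% of all genes. For 0 of the 10 did every Con A + PBS mouse lie below every control mouse, against 23.4% of all genes, although 1 gene was called lower by limma. All 10 had an unadjusted limma p below 0.05, as did 60.7% of all genes.

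**Figure D1:**
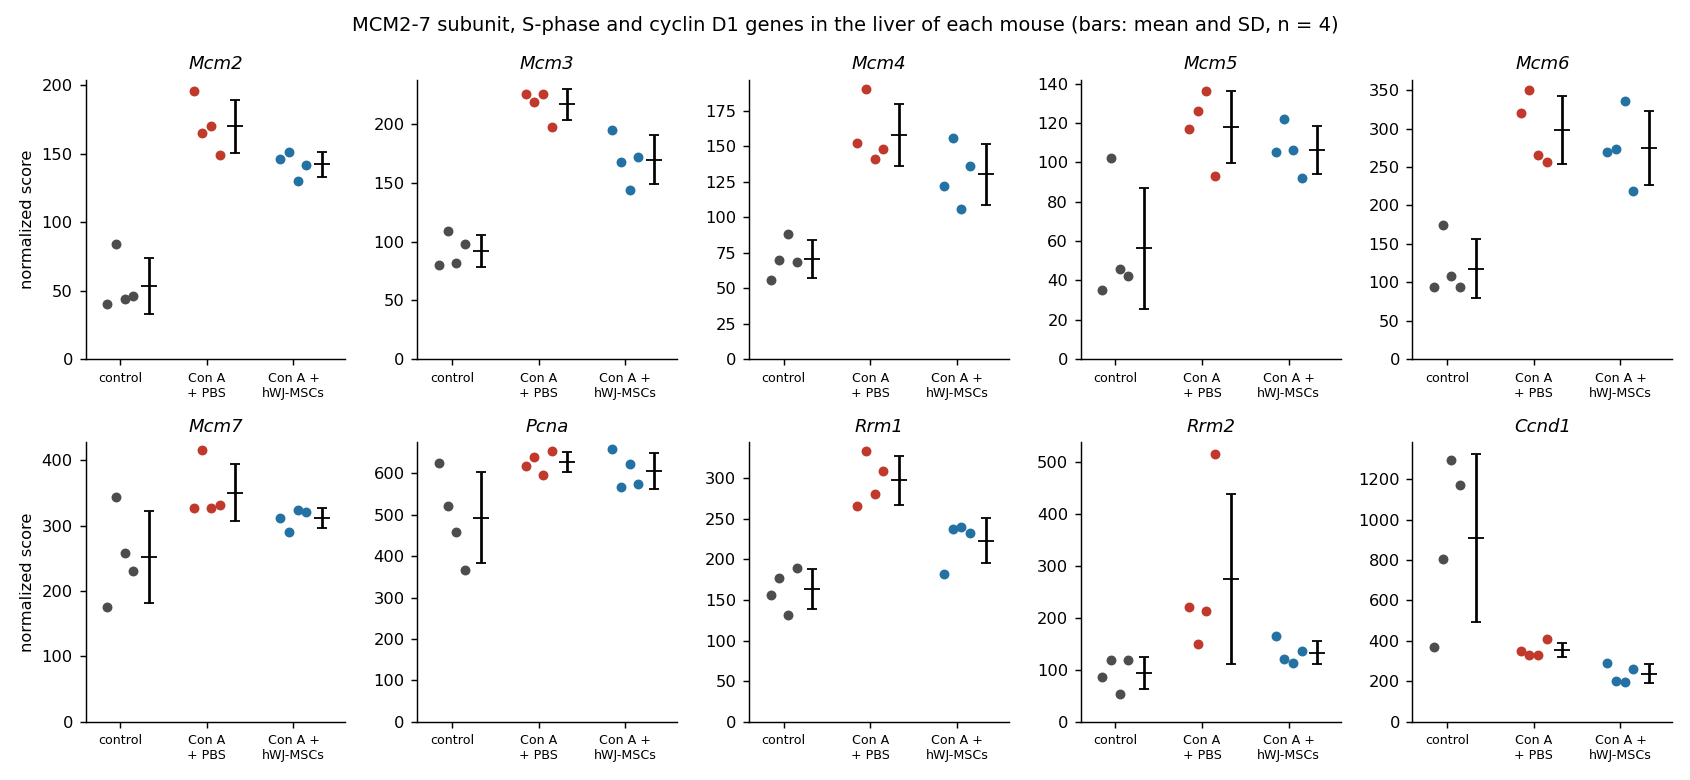
Normalized scores of the 10 genes (vertical axes, linear from 0) in each of the 12 livers by group, with points for mice 1 to 4 from left to right and bars for the mean and SD of 4 mice. Mcm2 scores lie between 40 and 84 in control mice and between 149 and 196 in Con A + PBS mice, whereas Ccnd1 scores lie between 371 and 1293 in control mice and between 332 and 408 in Con A + PBS mice.

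Mcm2 (chr6:88883475-88898780, - strand, mm10) had scores of 40, 84, 44 and 46 in control mice 1 to 4 and of 196, 165, 170 and 149 in Con A + PBS mice 1 to 4. Every Con A + PBS mouse was above every control mouse, and the log2 fold change of 1.71 ± 0.20 (SE, adjusted p = 2.6e-05) was the largest rise among the 10 genes. Mcm6 (chr1:128331590-128359664, - strand) had scores of 94, 174, 108 and 94 in control and of 320, 350, 266 and 256 in Con A + PBS mice. It rose by 1.37 ± 0.20 on the log2 scale (SE, adjusted p = 1.1e-04), again without overlap. The mean scores were 118 ± 38.2 (SD, n = 4) in control and 298 ± 44.6 (SD, n = 4) in Con A + PBS mice.

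Mcm3 (chr1:20802968-20820312, - strand) had control scores of 80, 109, 82 and 98 and Con A + PBS scores of 226, 219, 226 and 198. The groups did not overlap and the spread within each was small, with a log2 fold change of 1.24 ± 0.13 (SE, adjusted p = 1.1e-05). Mcm4 (chr16:15623897-15637400, - strand) had control scores of 56, 70, 88 and 68 and Con A + PBS scores of 152, 190, 141 and 148, a log2 fold change of 1.16 ± 0.17 (SE, adjusted p = 1.1e-04) without overlap. Mcm5 (chr8:75109528-75128439, + strand) had control scores of 35, 102, 46 and 42 and Con A + PBS scores of 117, 126, 136 and 93. Control mouse 2, at 102, was above Con A + PBS mouse 4, at 93, so the groups overlapped, and the log2 fold change was 1.17 ± 0.27 (SE, adjusted p = 0.00311). Without either of the mice named above, the calls of Mcm2 to Mcm6 were kept.

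Mcm7 (chr5:138164583-138172422, - strand) stood apart from the other hexamer subunits. Its scores were 175, 344, 258 and 230 in control and 327, 415, 326 and 331 in Con A + PBS mice, and control mouse 2 lay above 3 of the Con A + PBS mice. The log2 fold change of 0.51 ± 0.17 (SE, adjusted p = 0.0221) was below the fold threshold, and without control mouse 2 it was 0.67 and was called. Within each mouse, log2 Mcm7 minus the mean log2 of Mcm2 to Mcm6 was 1.61 to 1.88 in control, 0.77 to 1.06 in Con A + PBS and 0.79 to 1.12 in Con A + hWJ-MSCs mice. This difference was computed after the values were seen and has no test, and only its shift between groups can be read, since levels of different genes were not scaled by length. The Mcm7 locus also holds Ap4m1 and Cops6 on the other strand, and the libraries did not keep strand. Ap4m1, an adaptor complex subunit gene whose listed start lies 420 bases from that of Mcm7, had a log2 fold change of -0.48 (adjusted p = 0.0297).

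Pcna, the sliding clamp gene, had scores of 626, 522, 458 and 366 in control and of 618, 640, 597 and 654 in Con A + PBS mice. Control mouse 1 lay within the Con A + PBS range, and the log2 fold change of 0.37 ± 0.14 (SE, adjusted p = 0.0367) was below the fold threshold. The transcript that the table lists for Pcna (chr2:132249162-132250170, - strand) is annotated as a retained intron in GENCODE M21 and spans 1009 of the 4153 bases of the gene. The genome also holds the pseudogenes Pcna-ps1 and Pcna-ps2, so how reads were shared between them is uncertain.

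Rrm1 (chr7:102441695-102469771, + strand), the large subunit of ribonucleotide reductase, had control scores of 156, 177, 132 and 189 and Con A + PBS scores of 266, 334, 281 and 309. It rose by 0.87 ± 0.14 on the log2 scale (SE, adjusted p = 2.1e-04) without overlap. Rrm2 (chr12:24708241-24714146, + strand), the small subunit whose level is known to follow S phase, had control scores of 86, 118, 54 and 119 and Con A + PBS scores of 221, 149, 212 and 514. Its rise of 1.44 ± 0.34 on the log2 scale (SE, adjusted p = 0.00338) was without overlap, but Con A + PBS mouse 4 was far above the others, and without this mouse the log2 fold change was 1.08 (adjusted p = 0.0047).

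Ccnd1 (chr7:144929931-144939869, - strand) went the other way. Its scores were 371, 806, 1293 and 1170 in control and 350, 332, 332 and 408 in Con A + PBS mice. Control mouse 1 was low, below Con A + PBS mouse 4, so the groups overlapped although the Con A + PBS mice lay close together. The log2 fold change was -1.21 ± 0.31 (SE, adjusted p = 0.00544), and without control mouse 1 it was -1.59 (adjusted p = 5.9e-05). LTO1 overlaps the gene on the other strand, and its reads were not separated by strand.

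**Figure D2:**
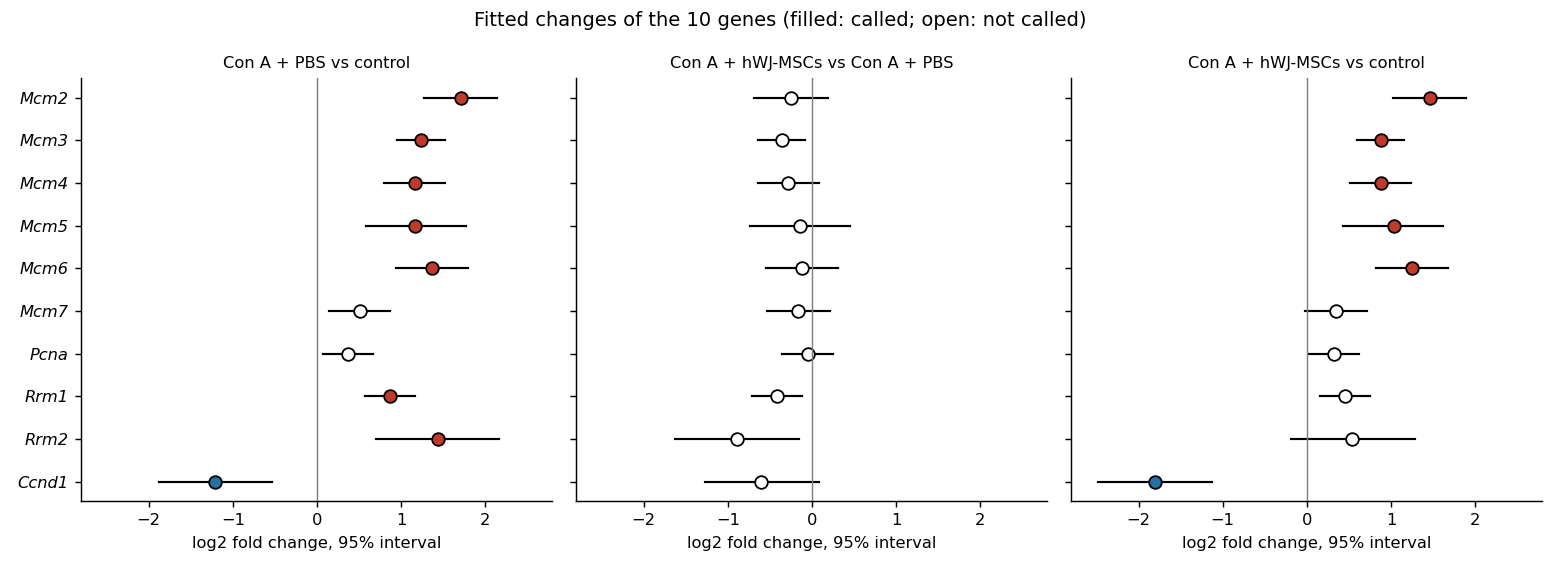
Log2 fold changes on the log2(score + 1) scale with 95% intervals from limma for the 10 genes in each of the 3 comparisons, filled where called (red higher, blue lower) and open where not. After Con A 7 genes are called higher and Ccnd1 lower, between the Con A groups all 10 circles are open, and against control Mcm2 to Mcm6 stay to the right of 0 with hWJ-MSCs.

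To ask whether hWJ-MSCs changed these genes, Con A + hWJ-MSCs livers were compared with Con A + PBS livers. All 10 log2 fold changes were below 0, from -0.89 for Rrm2 to -0.05 for Pcna, but limma called 0 of the 10 higher or lower, against 4.2% of all genes called higher and 4.38% called lower. At an unadjusted p below 0.05 there were 3 (Mcm3, Rrm1 and Rrm2), against 34.6% of all genes, and the median log2 fold change was -0.27 over the 10 genes and 0.00 over all genes. For 4 of the 10 genes (Mcm3, Mcm7, Rrm1 and Ccnd1) every Con A + hWJ-MSCs mouse was below every Con A + PBS mouse, against 11.6% of all genes, and for 0 of the 10 the opposite was seen, against 11.9%.

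Mcm3 had scores of 195, 168, 144 and 172 in Con A + hWJ-MSCs mice 1 to 4, a log2 fold change of -0.36 (95% interval -0.64 to -0.08, adjusted p = 0.0774) from Con A + PBS. Rrm1 had scores of 182, 238, 240 and 232 there, a log2 fold change of -0.42 (95% interval -0.71 to -0.12, adjusted p = 0.0586). The means of both genes lay between those of control and Con A + PBS mice. Rrm2 had scores of 164, 120, 112 and 136, a log2 fold change of -0.89 (95% interval -1.63 to -0.15, adjusted p = 0.088), which was -0.54 without Con A + PBS mouse 4. Without Con A + PBS mouse 2, the lowest of its group, Rrm2 was called lower at -1.13 (adjusted p = 0.038).

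For the other hexamer genes the intervals ran across 0. That of Mcm2 was -0.69 to 0.19, that of Mcm4 -0.64 to 0.08, that of Mcm5 -0.74 to 0.45, that of Mcm6 -0.55 to 0.31 and that of Mcm7 -0.53 to 0.21, so a fold change of 1.5 downward was not excluded for Mcm2, Mcm4 and Mcm5. Pcna, at -0.35 to 0.25, was the most tightly bounded among the genes whose interval held 0. Ccnd1 had scores of 291, 202, 196 and 260 with hWJ-MSCs, all below the lowest Con A + PBS score of 332, and hence farther from control. Its log2 fold change of -0.60 (95% interval -1.27 to 0.08, adjusted p = 0.189) was not called, but it was called at the same size without control mouse 1 (adjusted p = 0.038), which enters only the shared estimate of spread, and with only the 8 mice compared (adjusted p = 0.043).

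To ask what difference from control remained after hWJ-MSCs, these mice were compared with the control mice, which also served the first comparison. Mcm2, Mcm3, Mcm4, Mcm5 and Mcm6 were called higher, 5 of the 10 genes against 13.6% of all genes, and Ccnd1 was called lower, against 13.1%. Of the 5 called higher, 2 (Mcm2 and Mcm5) are in the table through the Con A groups. The median log2 fold change was 0.71 over the 10 genes and 0.04 over all genes. Every Con A + hWJ-MSCs mouse was above every control mouse for 4 genes (Mcm2, Mcm3, Mcm4 and Mcm6), against 20.6% of all genes, and below for Ccnd1 alone, against 17.3%. Among these 4 genes, too, Mcm2 is in the table through the Con A groups.

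Mcm2 scores were 146, 151, 130 and 142 in the Con A + hWJ-MSCs mice, a log2 fold change of 1.46 ± 0.20 (SE, adjusted p = 1.6e-04) from control. Mcm6 scores were 270, 274, 336 and 219, a log2 fold change of 1.25 ± 0.20 (SE, adjusted p = 4.3e-04). Mcm4 scores were 122, 156, 106 and 136, a log2 fold change of 0.88 ± 0.17 (SE, adjusted p = 0.00143). These helicase subunit genes were thus above control in all 4 mice given cells. Mcm5 scores were 105, 122, 106 and 92, a log2 fold change of 1.03 ± 0.27 (SE, adjusted p = 0.0101), with overlap only through control mouse 2. Mcm3 had a log2 fold change of 0.88 ± 0.13 (SE, adjusted p = 2.8e-04).

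Among the genes not called, Mcm7 scores were 312, 290, 323 and 320, a log2 fold change of 0.35 (95% interval -0.02 to 0.71, adjusted p = 0.121). Pcna scores were 660, 566, 622 and 574, a log2 fold change of 0.32 (95% interval 0.02 to 0.62, adjusted p = 0.0835). Both of these genes overlapped with control. Rrm1 had a log2 fold change of 0.45 (adjusted p = 0.0197), below the fold threshold, and Rrm2 one of 0.54 (95% interval -0.19 to 1.28, adjusted p = 0.219). Ccnd1 showed the largest difference from control, with a log2 fold change of -1.81 ± 0.31 (SE, adjusted p = 7.1e-04), a level of 0.286 of that in control mice.

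The genes that work with the MCM hexamer and around it were read from 7 lists holding 139 genes, of which 95 were in the table. After Con A, 31 of the 95 were called higher and 11 lower, with a median log2 fold change of 0.37, where 19.5% and 19.2% of all genes were called. Of the 31, 11 reached a score of 64 in fewer than 2 control mice (Orc2, Fen1, Tipin, Ctps, Ccna2, Rbl1, Skp2, Myc, Uhrf1, Top2a and Kif11) and are in the table through the Con A groups. Of the 13 origin licensing and helicase partner genes in the table, 2 were called higher, 1 lower and 10 not, which is not above the share of all genes called higher. Gins2, a subunit of the GINS complex that joins the MCM hexamer in the active helicase, had scores of 102, 132, 193 and 156 in control, 440, 406, 409 and 374 in Con A + PBS and 520, 388, 448 and 520 in Con A + hWJ-MSCs mice. It rose by 1.51 on the log2 scale after Con A (adjusted p = 1.8e-05) and showed no fall with cells. Orc2, an origin recognition subunit, rose by 1.11 (adjusted p = 1.8e-04). Orc5 was called only against control with hWJ-MSCs, at 0.70 (adjusted p = 0.00422). Cdt1, the loader of the hexamer, had a log2 fold change of 0.68 (adjusted p = 0.0758) and was not called. Mcm10, which despite its name is no hexamer subunit and acts when origins fire, moved opposite to Mcm2 to Mcm6. Its scores were 182, 216, 219 and 247 in control, 89, 94, 94 and 78 in Con A + PBS and 110, 218, 192 and 105 in Con A + hWJ-MSCs mice. It fell by 1.27 on the log2 scale after Con A (adjusted p = 3.9e-04) and was 0.74 higher with hWJ-MSCs than with PBS (adjusted p = 0.0464), where the hWJ-MSCs mice split into 2 near the Con A + PBS level and 2 near the control level.

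Among 28 fork genes, 7 were called higher and 1 lower after Con A, and 20 were not called. The shares of all genes, 19.5% called higher and 19.2% lower, stand beside this count and those of the lists below. Pole4, a small subunit of DNA polymerase epsilon, rose by 1.49 on the log2 scale (adjusted p = 8.9e-06), Fen1, the flap endonuclease of Okazaki fragment maturation, by 1.21 (adjusted p = 0.00108), and Tipin, a fork protection factor, by 0.88 (adjusted p = 4.6e-04). Rnaseh2c, a subunit of the nuclease that removes ribonucleotides from DNA, was the gene called lower, at -0.73 (adjusted p = 3.7e-04). The genes of the priming polymerase, Pola1 and Pola2, had log2 fold changes of -0.05 and 0.07. Prim1, the primase subunit of the same complex, had one of 0.54 (adjusted p = 0.00995), under the fold threshold. With hWJ-MSCs against control Prim1 was called higher, at 0.79 (adjusted p = 0.00166). Prim1 reached a score of 64 in 0 control mice, so it is in the table through the Con A groups. Between the Con A groups 0 of the 28 fork genes were called by limma, with 3 (10.7%) at an unadjusted p below 0.05, against 34.6% of all genes.

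The list of deoxynucleotide and thymidylate supply was divided, with 4 of 17 genes called higher and 5 lower after Con A and a median log2 fold change of -0.14. While Rrm1 and Rrm2 rose, Tk1, the S-phase thymidine kinase of the salvage pathway, fell. Its scores were 863, 468, 346 and 420 in control, 48, 72, 44 and 19 in Con A + PBS and 75, 218, 100 and 62 in Con A + hWJ-MSCs mice, without overlap between control and either Con A group. The log2 fold change of Tk1 after Con A was -3.54 (adjusted p = 3.8e-05), the largest fall in the 7 lists. Shmt1 and Mthfd1, enzymes of folate one-carbon metabolism that are abundant in liver, fell by 2.22 and 1.68 on the log2 scale. Ctps, which makes CTP, rose by 2.85 (adjusted p = 5.6e-05) and Samhd1, a hydrolase that breaks down deoxynucleotides, by 2.30 (adjusted p = 1.2e-06). Cad, which starts pyrimidine synthesis, rose by 1.5 (adjusted p = 0.0027). Samhd1 was the only gene of this list called between the Con A groups, at -0.84 with hWJ-MSCs (adjusted p = 0.0234). An unadjusted limma p below 0.05 was found there for 13 of the 17 (76.5%), against 34.6% of all genes. Against control, Nme1, a nucleoside diphosphate kinase gene, was 1.18 higher in Con A + hWJ-MSCs mice (adjusted p = 7.5e-05).

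**Figure D3:**
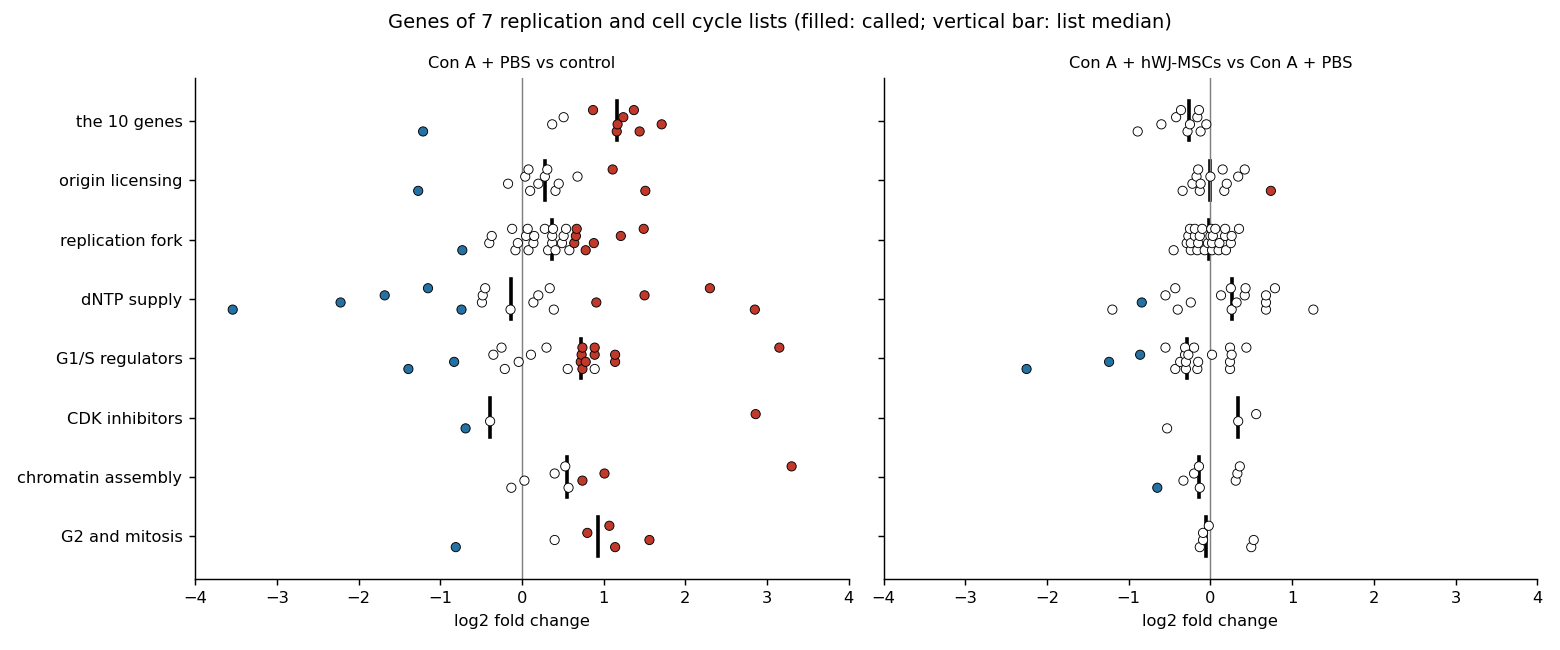
Log2 fold changes (horizontal axes) of the 10 genes and of the 95 genes of 7 replication and cell cycle lists after Con A (left) and with hWJ-MSCs against PBS (right), filled where called (red higher, blue lower), with a vertical bar at each list's median. After Con A 31 list genes lie to the right and 11 to the left as filled points, with Tk1 at -3.54, and on the right panel 6 points are filled.

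Of 20 G1/S regulators, 10 were called higher and 2 lower after Con A, and the D-type cyclins were divided. Ccnd2, the cyclin D2 gene, had scores of 84, 122, 82 and 116 in control, 245, 224, 211 and 202 in Con A + PBS and 102, 82, 76 and 116 in Con A + hWJ-MSCs mice. It rose by 1.14 on the log2 scale after Con A (adjusted p = 1.5e-04) and was lower by -1.24 with hWJ-MSCs than with PBS (adjusted p = 0.0119), with the scores of hWJ-MSCs mice overlapping those of control mice. Ccnd3, the cyclin D3 gene, rose by 0.74 after Con A (adjusted p = 3.0e-05) and was not called between the Con A groups (log2 fold change -0.15). Within each mouse log2 Ccnd1 minus log2 Ccnd2 was 2.13 to 3.96 in control, 0.51 to 1.01 in Con A + PBS and 1.16 to 1.5 in Con A + hWJ-MSCs mice, 3 ranges without overlap. This difference, too, was computed after the values were seen, and only its shift can be read.

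Myc, a growth regulator, rose by 3.15 after Con A (adjusted p = 2.3e-04), with scores of 578, 282, 274 and 1692 in the Con A + PBS mice, the last of them mouse 4. It was lower by -2.25 with hWJ-MSCs than with PBS (adjusted p = 0.0252). Rbl1, which codes for the pocket protein p107, rose by 1.14 (adjusted p = 2.7e-04), while Rbl2 (p130) and Tfdp2, a partner of E2F, had log2 fold changes of -0.83 and -1.39 and were called lower. Cdk6, a partner of the D cyclins, was called lower with hWJ-MSCs both against PBS (-0.86, adjusted p = 0.0381) and against control (-1.20, adjusted p = 0.00168), and the other partner Cdk4 was 0.80 higher than control with hWJ-MSCs (adjusted p = 3.4e-04). Skp2, a ubiquitin ligase subunit that targets cell cycle inhibitors, was 1.17 higher than control with hWJ-MSCs (adjusted p = 0.00346).

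Of the CDK inhibitor genes, 3 of 8 were in the table. Cdkn1a, which codes for p21, a brake on S-phase entry and a binder of PCNA, rose by 2.86 on the log2 scale after Con A (adjusted p = 2.8e-06), from scores of 252 to 590 in control to 2009 to 3260 in Con A + PBS mice, and was 2.33 above control with hWJ-MSCs (adjusted p = 2.6e-05). Cdkn2c (p18) was called lower after Con A, at -0.69 (adjusted p = 0.00709). Thus the p21 gene and Mcm2 to Mcm6 were both higher in the Con A groups than in control. Mouse by mouse they did not rise together within the Con A + PBS group. Cdkn1a scores were 2521, 2009, 2492 and 3260 in mice 1 to 4. The mean log2 of Mcm2 to Mcm7 was 7.71, 7.81, 7.65 and 7.50 there, a description without a test.

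Of 8 chromatin assembly genes 3 were called higher after Con A. Uhrf1, which brings the maintenance methyltransferase to replicated DNA, rose by 3.30 (adjusted p = 6.7e-04) from scores of 2, 32, 8 and 3 in control to 77, 96, 98 and 44 in Con A + PBS mice. Its control scores are so low that it is in the table through the Con A groups. Dnmt1, that methyltransferase, rose by 1.01 (adjusted p = 1.2e-04) and was lower by -0.65 with hWJ-MSCs (adjusted p = 0.0254), and Supt16, a histone chaperone subunit, rose by 0.74 (adjusted p = 1.9e-04). Nasp, a histone chaperone gene, was 0.71 above control with hWJ-MSCs (adjusted p = 3.6e-04). Of 27 G2 and mitosis genes 6 were in the table, of which 4 were called higher and 1 lower after Con A. Top2a, Bub1 and Mki67 rose by 1.56, 1.14 and 1.07 (adjusted p = 0.0047, 3.2e-04 and 0.0423). The groups overlapped for Top2a and Mki67. Cenpa, a centromeric histone gene, fell by 0.81 (adjusted p = 0.0101). Ccnf, the cyclin F gene, was called only in the comparison of hWJ-MSCs with control, at 0.94 (adjusted p = 0.00661).

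Over the 7 lists, Con A + hWJ-MSCs mice had 26 genes called higher and 5 lower than control, and 1 higher and 5 lower than Con A + PBS mice. Against control these counts stand beside 13.6% of all genes called higher and 13.1% lower, and between the Con A groups beside 4.2% and 4.38%. Of the 26 list genes called higher than control, 10 are in the table through the Con A groups. The same holds for 377 of the 1539 genes called higher among all genes. Between the Con A groups 34 of the 95 genes had an unadjusted p below 0.05, 35.8% against 34.6% of all genes. With each mouse left out in turn the 6 fold changes between the Con A groups kept their direction, with Ccnd2 at -1.34 to -1.14 and called in 10 of 12 fits, Myc at -2.56 to -1.69 and called in 9, and Mcm10 at 0.55 to 0.90 and called in 4. Without Con A + PBS mouse 1 or without Con A + hWJ-MSCs mouse 3 limma called 0 of the 6.

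**Figure D4:**
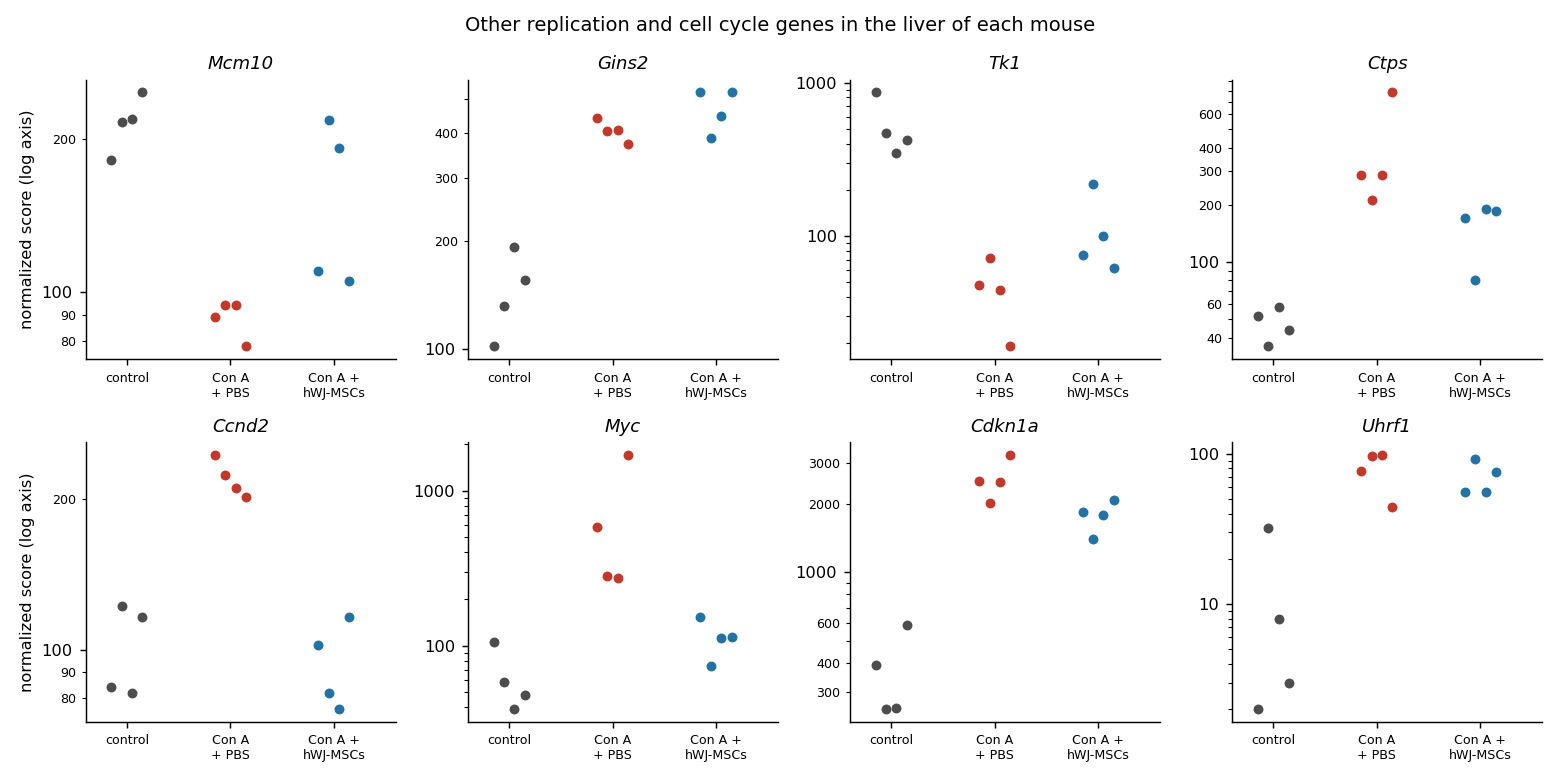
Normalized scores (log axes) of Mcm10, Gins2, Tk1, Ctps, Ccnd2, Myc, Cdkn1a and Uhrf1 in each of the 12 livers, with points for mice 1 to 4 of each group from left to right. Mcm10 (78 to 94) and Tk1 (19 to 72) are low in Con A + PBS mice, Gins2, Ctps, Ccnd2, Myc, Cdkn1a and Uhrf1 are high there, and the Ccnd2 scores of Con A + hWJ-MSCs mice (76 to 116) overlap those of control mice (82 to 122).

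Cell type markers moved in the same comparisons, and their part in the results was not tested. The 7 hepatocyte markers, all in the table, had summed scores of 1219583 to 1436534 in control, 681740 to 696675 in Con A + PBS and 666430 to 766926 in Con A + hWJ-MSCs mice, so the labelled tissue was marked by its own genes. Alb stood at the table's largest value of 341028 and Cps1 at 147960 in every mouse, so these sums cannot show their changes. Of 12 T cell markers 4 were in the table (Cd8a, Lck, Cd28 and Thy1) and the CD3 chain genes were not, with summed scores of 31 to 86 in control, 344 to 603 in Con A + PBS and 361 to 474 in Con A + hWJ-MSCs mice. Cd8a was at 0 in control mouse 1 and Cd28 in control mouse 3. The sums of 4 of 6 NK cell markers were 153 to 202, 650 to 1037 and 589 to 1156 in the same order of groups, those of 5 of 8 neutrophil markers 67 to 147, 818 to 1812 and 811 to 1653, and those of 6 of 6 monocyte markers 1056 to 1376, 1840 to 2164 and 1605 to 2831. Members of these lists differed, since the monocyte marker Lyz2 was called lower after Con A, at -1.39 on the log2 scale, and the NK cell marker Klrk1 was not called, at 0.20. All 4 T cell, all 5 neutrophil and 3 of the 4 NK cell markers in the table reached a score of 64 in fewer than 2 control mice. These markers are there through the Con A groups, which favours markers that are higher in them. Of the 5 B cell markers 0 were in the table.

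The other lists held markers that moved either way. Sums of 9 of 10 Kupffer cell and macrophage markers were 5147 to 8130 in control, 1574 to 2337 in Con A + PBS and 758 to 2295 in Con A + hWJ-MSCs mice, and those of 7 of 7 sinusoidal endothelial markers were 2309 to 3356, 1119 to 1570 and 1248 to 1550. Cd68, a macrophage marker, was called higher after Con A, at 2.89 on the log2 scale, against 8 of the 9 of its list called lower, as was the endothelial marker Lyve1, at 1.29. Sums of 5 of 6 erythroid markers were 4523 to 8415, 1944 to 3326 and 1625 to 2554. Sums of 7 of 7 stellate cell and fibroblast markers overlapped between the groups (4827 to 7654, 6089 to 7109 and 4498 to 9520), as did those of 3 of 6 cholangiocyte markers (2254 to 4431, 2340 to 13241 and 2208 to 6466).

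The genes most like the MCM genes in pattern were found from the root mean square difference, over the 12 mice, between each gene's log2 score centred on its own mean and the mean of the centred Mcm2 to Mcm7. The 8 nearest were Tmem173, Cyfip2, Gm15013, Tdrd7, Bub1, Hn1, Fam111a and Rbm38, at 0.12 to 0.19, where the median over all other genes was 0.61. Their pattern was the basis of the choice and has no test. Tmem173, which codes for the DNA-sensing adaptor STING, had scores of 40, 72, 45 and 42 in control, 110, 140, 123 and 119 in Con A + PBS and 102, 91, 102 and 104 in Con A + hWJ-MSCs mice. The MCM genes themselves, which make up that mean, were at 0.16 (Mcm3) to 0.33 (Mcm7). The 8 genes nearest to Ccnd1 were Gch1, F2, C77080, C4b, Man2a2, Nt5e, Erbb4 and Eef2, at 0.42 to 0.44, where the median over other genes was 0.94. Prkdc, whose listed start lies 466 bases from that of Mcm4 on the other strand, had a log2 fold change of -0.34 after Con A (adjusted p = 0.0547) where Mcm4 rose.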

How the data were processed

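The deposited table holds 1 score per gene and mouse, whole numbers normalized by the authors by a method not given in the sources used here: medians are 352 in every mouse and totals differ by 0.0425% of their median. With medians held equal, a shift of all genes in the same direction could not be seen. Per the submitters' processing notes, Bowtie2 2.2.1, RSEM 1.2.18 and mm10 were used. Scores are not counts, so no count model was used and their counting error is unknown. Replicates were taken as separate mice, and p-values set group differences against the spread between these samples.

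Scores were fitted as log2(score + 1) with limma 3.58.1 (R 4.3.3), eBayes with a trend, in 1 model of 12 mice, with Benjamini-Hochberg adjustment over 11289 genes. The test was checked on simulated data. Fold changes on this scale understate those of low genes. The 10 genes and the lists were chosen with earlier results of these data known. The named list genes are the 3 largest called changes per direction, list and comparison. Ccnd3, Cdt1, Pola1, Pola2, Prim1 and the markers named singly were added, chosen after their values were seen. Motifs were searched in RefSeq promoter windows with Python 3.11.15, and transcripts looked up in GENCODE M21. Fits were repeated with each mouse left out, a replicate block, quantile or median rescaling, no trend, another pseudocount (10), a filter on mean scores (100), the 8 mice compared alone and other thresholds.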

Additional observations from a re-analysis of the deposited data

Results flagged for a closer look

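Of 30 sets of 4 mice (10 genes in 3 groups), 2 held a mouse far from the other 3, and chance alone gives about 1 in 20. Mcm7 had scores of 327, 415, 326 and 331 in the Con A + PBS mice, where the gap from mouse 2 to its nearest neighbour was 0.94 of the group's range on the log2 scale. Rrm1 had scores of 182, 238, 240 and 232 in the Con A + hWJ-MSCs mice, where the gap below mouse 1 was 0.88 of the range.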

How the results depend on the processing

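Depth is unknown, so low scores carry an unknown counting error, and genes under the authors' minimum could not be read. With a fold change above 2, list genes called after Con A were 16 higher and 6 lower, those with hWJ-MSCs against PBS 0 and 2, those with hWJ-MSCs against control 10 higher, and 3 of the 10 genes stayed higher than control with hWJ-MSCs. With no fold threshold 8 list genes were lower with hWJ-MSCs than in control. Between the Con A groups, 1 of the 10 genes was called lower with the unadjusted p (Rrm2) and 1 with only the 8 mice compared (Ccnd1), and list genes called higher were 6 with the unadjusted p and 0 without a trend. With control mouse 2 and Con A + PBS mouse 4 both left out, an alternative chosen after seeing the data, 8 of the 10 genes were called higher after Con A and 1 lower, and list calls between the Con A groups were 0 higher and 2 lower. With each mouse left out in turn, the 10 genes gave 7 to 8 calls higher and 1 lower after Con A, 0 to 1 lower between the Con A groups, and 5 higher and 1 lower for hWJ-MSCs against control. List genes then gave 0 to 6 calls higher and 0 to 6 lower between the Con A groups and 5 to 8 lower for hWJ-MSCs against control. The 10 genes whose mice all lay below control after Con A were 0 to 1 (Ccnd1, without control mouse 1 or Con A + PBS mouse 4). The cause of these shifts was not tested. Replicate numbers belong to different mice. Deviations from the group mean correlated at -0.118 to 0.375 between same-numbered mice of different groups, and at -0.385 to 0.141 between differently numbered ones. With the replicate number as a block, 6 list genes were called higher with hWJ-MSCs than with PBS, and no count over the 10 genes changed. No fold change of the 10 genes changed sign under any alternative. Several alternatives could not change one. Median rescaling, no trend, the filter on mean scores, the 8 mice alone and the replicate block leave the fold changes as they are. Quantile rescaling could change little, since medians were already equal and totals nearly so. With it the log2 fold change of Mcm2 after Con A went from 1.71 to 1.67.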

Other observations

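Single mice were high or low for many of the replication genes together, which was seen in the data and has no test. Control mouse 2 had the highest control score for 5 of the 6 MCM genes and also for Mki67 (154, with 44 to 78 in the other 3 control mice) and Top2a (90, with 22 to 62), and its summed T cell marker score of 86 and Kupffer cell and macrophage marker score of 8130 were the highest among control mice. Control mouse 1 had the lowest control score, or tied for it, for 6 of the 6 MCM genes. Con A + PBS mouse 4 had the lowest score of its group for 4 of the 6 MCM genes, for Mki67 (77, with 164 to 226 in the others) and for Top2a (76, with 150 to 190), yet the highest for Rrm2 (514), Myc (1692) and Ctps (782). Its summed T cell marker score of 344 and neutrophil marker score of 818 were the lowest of the Con A + PBS mice, and its cholangiocyte marker score of 13241 was the highest of all mice.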
